A study of Mus musculus with 16 samples.

Results

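The 37 genes described here carry glucose into the cell, split it to pyruvate, move lactate in and out, feed pyruvate into the mitochondrion and run the pentose phosphate branch, together with Hif1a, which encodes the oxygen-regulated subunit of hypoxia-inducible factor 1. They were named as a list, and a probe was assigned to a gene where the gene name in the array files was the listed symbol or an older name for it, such as Pkm2 for Pkm. For Gapdh the older name was built from its gene number. Of the 37 genes, 36 had a probe under this rule. They held 66 of the 41174 non-control probes, and 65 of these probes were bright enough to be tested. All 36 genes were among the 18399 genes tested. Rpia, ribose 5-phosphate isomerase of the pentose phosphate pathway, had no probe under the rule.

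Mouse CD8 T cells were sorted from 7-week-old female C57BL/6N animals as CD8+ Thy1.2+ cells with low CD44 (naive) or high CD44 (memory phenotype), then cultured for 4 h, either without drugs or with 10 ng/mL PMA plus 500 ng/mL ionomycin, a pair that switches on protein kinase C and calcium signalling without the T cell receptor. The resting and stimulated cells of either type make 4 groups, and RNA of each group was hybridised to 4 single-colour Agilent arrays, 16 in all, and the sort and culture were done 4 independent times. The high CD44 sort takes every CD8 T cell with that phenotype in mice that the labels do not describe as immunised, so it is a phenotype and not a population of known antigen history. Levels are given as log2 of the scanner software's processed signal minus the 75th percentile of each array, so a step of 1 is a 2-fold change. A value after ± is the fit's SE. Which array number belongs to which round of sorting is not stated in what was used here, so p-values measure the spread between these arrays.

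Glycolysis turns glucose into pyruvate in the cytosol, and lactate dehydrogenase then either makes lactate from that pyruvate or runs the other way. Pyruvate dehydrogenase instead sends it to the tricarboxylic acid cycle, and its kinases switch that entry off. The pentose phosphate pathway branches from glucose 6-phosphate to make NADPH and ribose phosphate for nucleotides. T cells are known to raise glucose uptake and lactate production when they are activated, and memory CD8 T cells are known to lean more on mitochondrial respiration at rest.

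Each group sat on its own slide, and on each slide the array position equalled the replicate number, so slide and group cannot be told apart. The scaling percentile lay between 504 and 678 intensity units, the share of spots above background between 59.3% and 66.5%, and the number of arrays limits the precision. The sort and the stimulation were visible in the transcripts. Cd44 was 4.05 ± 0.19 higher (log2, ± SE) in memory resting than in naive resting cells, and Il2, the T cell growth factor, was at least 550-fold higher in naive stimulated than in naive resting cells, in which it was not well above background. Cd8a stood at 3.43 to 5.22 on average in the 4 groups. Of the CD8 T cell markers listed, 7 of 8 were tested, and their summed level on a linear scale was 342 to 491 in naive resting, 354 to 395 in memory resting, 217 to 296 in naive stimulated and 261 to 316 in memory stimulated cells. The 10 myeloid markers summed to 8.54 to 14.4 and 13.6 to 22.3 in the resting naive and memory groups and to 1.66 to 3.18 and 2.84 to 4.36 in the stimulated ones. The 5 NK cell markers, which memory CD8 T cells can also express, summed to 5.83 to 10.3, 17.3 to 19.5, 13 to 21 and 41.8 to 65.9 in resting naive and memory and stimulated naive and memory cells. The 5 tested B cell markers summed to 1.66 to 2.20, 1.36 to 1.60, 0.211 to 0.419 and 0.199 to 0.264 in the same order, and the tested CD4 and erythrocyte or platelet markers summed to at most 0.308. The 3 tested dendritic cell markers summed to 0.335 to 0.638, 1.38 to 1.88, 0.50 to 2.06 and 1.95 to 4.40 in the same order, so that the resting groups did not overlap and the stimulated groups did. The part of these other cells in the results was not tested, and in RNA from a bulk sort fewer cells of a type and less RNA per cell cannot be told apart.

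The arrays numbered 1 stood apart in many of these genes. In 13 of 36 genes (36.1%) replicate 1 was the highest of the 4 arrays in all 4 groups, against 659 of 18399 genes tested (3.58%). No gene of the 36 had replicate 2 or 3 highest in all 4 groups, where 0.609% and 0.5% of all genes did. Replicate 4 was highest there in 4 (11.1%: Hif1a, Pfkfb4, Rpe and Taldo1) and in 964 of all genes (5.24%). Over all genes it was thus highest more often than replicate 1. Of all genes tested, 10.3% had replicate 1 as the lowest array in all 4 groups, and of the 36 these were Pdhb and Slc16a1. Slc16a3, the lactate exporter MCT4, was furthest out: replicate 1 exceeded the mean of the other replicates by 2.09, 1.45, 2.88 and 2.25 (log2) in resting naive and memory and stimulated naive and memory cells. Tpi1, triose phosphate isomerase, did so by 1.82, 0.91, 2.32 and 1.69. Eno1, the main enolase, stood 1.33, 0.66, 1.65 and 1.10 above, and Pfkl, liver-type phosphofructokinase, 1.31, 0.72, 1.57 and 1.07 above. A gap of at least 0.5 in every group was found in 5 of 36 genes (13.9%) and in 113 of 18379 genes with a value (0.615%). Replicate number, slide position and round of sorting cannot be told apart here. Results that rest on these arrays are given with all 16 arrays and, as an alternative chosen after seeing the data, with the 12 arrays numbered 2 to 4.

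**Figure D1:**
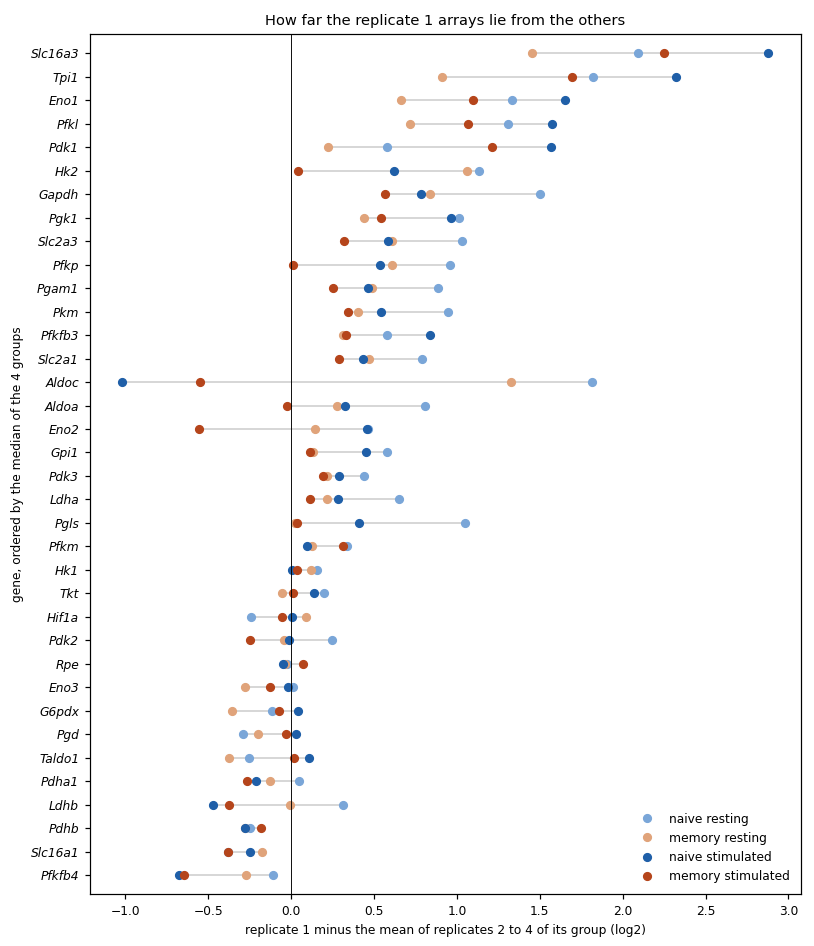
Each dot is the level on the replicate 1 array minus the mean of replicates 2 to 4 of the same group (log2, horizontal axis), for the 36 measured genes (vertical axis) and the 4 groups (colours). Slc16a3, Tpi1, Eno1, Pfkl and Gapdh lie at least 0.5 to the right of 0 in all 4 groups, Aldoc is above 0 in both resting groups and below 0 in both stimulated groups, and Slc16a1 and Pdhb lie to the left in all 4.

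Promoter sequences are shown for 6 genes whose levels the results turn on: Hk2 and Slc16a1, which rose most, Pdk1 and Slc16a3, which fell, and Ldha and Pgk1, long used as examples of genes under hypoxia-inducible factor 1. Each is the 250 bases before the RefSeq transcript start on GRCm38.p6, read 5′ to 3′ on the gene's strand. Capitals mark ACGTG and GCGTG on either strand, the core letters that hypoxia-inducible factor 1 is known to bind. CACGTG, the letters bound by Myc and related factors, holds ACGTG on both strands and is therefore also in capitals.
Hk2, chr6:82774455-82774704, minus strand: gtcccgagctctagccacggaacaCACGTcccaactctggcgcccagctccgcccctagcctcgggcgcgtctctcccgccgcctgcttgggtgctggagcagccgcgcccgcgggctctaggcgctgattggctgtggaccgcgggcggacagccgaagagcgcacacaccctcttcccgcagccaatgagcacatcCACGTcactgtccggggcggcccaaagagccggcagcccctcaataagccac
Pgk1, chrX:106186850-106187099, plus strand: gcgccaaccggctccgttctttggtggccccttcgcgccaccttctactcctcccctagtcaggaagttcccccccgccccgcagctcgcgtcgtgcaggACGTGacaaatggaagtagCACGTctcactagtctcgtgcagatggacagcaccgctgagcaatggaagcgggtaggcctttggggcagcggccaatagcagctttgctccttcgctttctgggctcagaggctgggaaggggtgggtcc
Ldha, chr7:46845554-46845803, plus strand: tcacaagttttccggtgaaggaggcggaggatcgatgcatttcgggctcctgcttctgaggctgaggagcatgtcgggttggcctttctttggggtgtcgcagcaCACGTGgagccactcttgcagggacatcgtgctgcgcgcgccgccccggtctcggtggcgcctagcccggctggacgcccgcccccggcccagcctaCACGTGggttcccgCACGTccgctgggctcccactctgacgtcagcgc
Slc16a1, chr3:104638414-104638663, plus strand: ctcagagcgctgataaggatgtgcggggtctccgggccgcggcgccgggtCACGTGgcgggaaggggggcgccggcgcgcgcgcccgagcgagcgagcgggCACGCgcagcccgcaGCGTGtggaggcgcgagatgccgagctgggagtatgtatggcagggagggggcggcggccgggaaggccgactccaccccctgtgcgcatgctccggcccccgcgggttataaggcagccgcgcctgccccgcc
Slc16a3, chr11:120948817-120949066, plus strand: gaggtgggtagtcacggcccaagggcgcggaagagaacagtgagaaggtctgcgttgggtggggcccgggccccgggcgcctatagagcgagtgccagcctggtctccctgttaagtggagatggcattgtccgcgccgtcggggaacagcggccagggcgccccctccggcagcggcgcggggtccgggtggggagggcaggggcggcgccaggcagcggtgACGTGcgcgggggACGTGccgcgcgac
Pdk1, chr2:71872974-71873223, plus strand: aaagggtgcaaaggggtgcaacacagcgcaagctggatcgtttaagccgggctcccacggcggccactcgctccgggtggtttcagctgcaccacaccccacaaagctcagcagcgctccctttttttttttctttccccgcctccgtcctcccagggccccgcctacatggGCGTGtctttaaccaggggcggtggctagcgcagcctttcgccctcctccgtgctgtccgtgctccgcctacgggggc
Hk2, Pgk1 and Slc16a3 each held ACGTG at 2 places, Ldha held CACGTG at 2 places and ACGTG at another, Slc16a1 held 1 CACGTG and 2 GCGTG, and Pdk1 held 1 GCGTG. Ldha and Pdk1 each have a second window in the table, not shown.

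RefSeq windows were found for 36 of the 37 genes (51 windows, since some genes have several starts), and Slc2a3 was not matched. ACGTG or GCGTG was present in a window of 32 of these 36 genes (88.9%) and of 11226 of 27025 genes in the table (41.5%). ACGTG alone was present in 15 (41.7%) against 18.5% of genes in the table, GCGTG in 25 (69.4%) against 30.9%, and CACGTG in 6 (16.7%) against 6.86%. A gene was counted where any of its windows held the letters, and the 27025 genes had 32851 windows. Neither the number of windows nor the base composition was matched between the 36 genes and all genes. These shares describe letters in a window and nothing about binding. Of the 4 genes furthest out in replicate 1, Slc16a3, Eno1 and Pfkl had such letters and the Tpi1 window had none. Since 32 of the 36 genes with a window had them, this does not set these genes apart. A link between the letters and the replicate 1 arrays was not tested.

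Stimulation changed 27 of the 36 genes (75%) in either cell type, close to the 68.8% of all genes tested that changed in naive and the 70.9% that changed in memory phenotype cells, but with a different split between rises and falls. In naive cells 20 rose (55.6%) and 7 fell (19.4%), where 36.7% of all genes tested were higher and 32% lower (adjusted p under 0.05, limma with Benjamini-Hochberg adjustment over all genes). In memory phenotype cells 19 rose (52.8%) and 8 fell (22.2%), against 30.1% higher and 40.8% lower over all genes. The median change of the 36 genes was 0.62 in naive and 0.71 in memory phenotype cells, and over all genes it was 0.11 and -0.21. In both cell types 18 genes rose, 6 fell (Pfkm, Eno3, Ldhb, Pfkfb4, Pdk1 and Pdk2) and 6 were not called (Gpi1, Pfkl, Tpi1, Eno1, Pdk3 and Taldo1). With the replicate number as a block, Pfkl and Pdk3 were called higher and Taldo1 lower in naive cells. In memory phenotype cells Pfkl was then called higher and Eno1 lower. The stimulated and resting arrays did not overlap in 22 of the 36 genes (61.1%) in naive and in 26 (72.2%) in memory phenotype cells, shares near those of all genes with a value on every array (60.2% and 65.2%). With the values from the authors, 16 rose and 10 fell in naive cells, where 33.3% of all genes were higher and 35.4% lower, and 16 rose and 11 fell in memory phenotype cells, where 30.2% were higher and 38.3% lower. The genes that lost a rise there or under quantile normalization were Slc2a1, Hk1, Aldoa, Pgk1 and Ldha. In memory phenotype cells 42.4% of all called genes were higher, a share that became 52.5% with a normexp background.

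**Figure D2:**
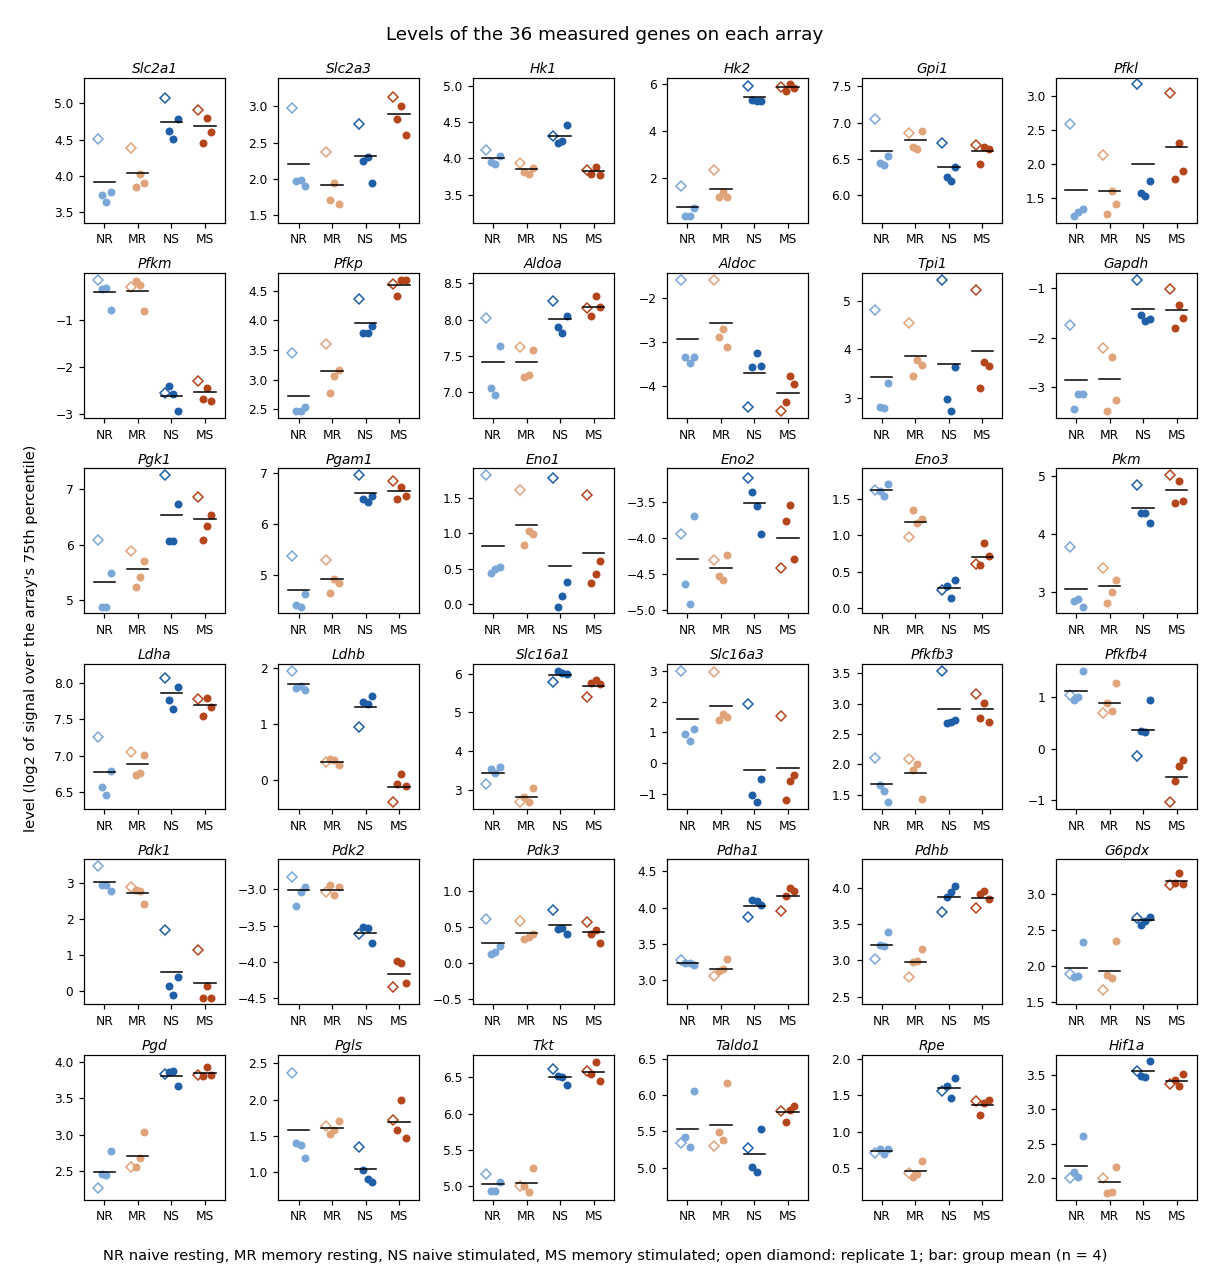
Each panel is one gene, with the level on each array (log2 of signal over the array's 75th percentile, vertical axis) in the 4 groups (horizontal axis). Dots are arrays, open diamonds the replicate 1 arrays, and bars the group means over 4 arrays. Hk2, Slc16a1 and Tkt separate resting from stimulated arrays in both cell types, Ldhb separates naive from memory phenotype arrays, and the open diamonds lie apart for Tpi1, Pfkl, Eno1 and Slc16a3.

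**Figure D3:**
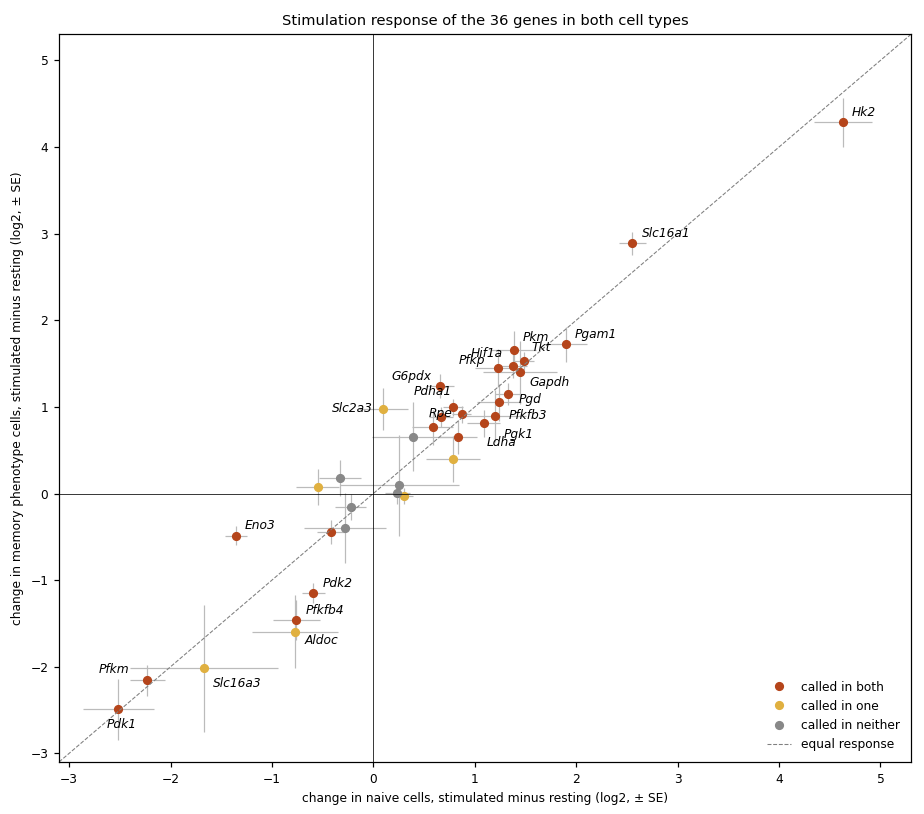
Change with stimulation in naive cells (horizontal axis) against memory phenotype cells (vertical axis), both log2 with SE, for the 36 genes. Most points lie near the dashed line of equal response, from Pdk1 at the lower left to Hk2 at the upper right, and Eno3 lies furthest from it relative to its error.

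Of the glucose transporters, Slc2a1 (GLUT1, the carrier that T cells raise on activation) rose in both cell types and Slc2a3 (GLUT3) passed the threshold in memory phenotype cells, not in naive cells. Slc2a1 was read at chr4:118513698-118513757 (probe coordinates are on mouse build mm7, as the files give them; no annotation of that build was used here, so exon or untranslated region is not given), with levels of 4.51, 3.73, 3.64 and 3.78 on the naive resting and 5.07, 4.62, 4.50 and 4.78 on the naive stimulated arrays. The naive groups touched, because replicate 1 of the resting group was as high as replicate 3 of the stimulated one. The change was 0.83 ± 0.19 in naive cells (adjusted p = 0.00138) and 0.65 ± 0.19 in memory phenotype cells (adjusted p = 0.00759). With quantile normalization it was 0.38 and 0.07 and with the authors' value table it was 0.23 and 0.06, neither called. Slc2a3 (chr6:122764878-122764937) stood at 2.38, 1.70, 1.94 and 1.66 on the memory resting and 3.13, 2.83, 3.01 and 2.61 on the memory stimulated arrays. Its change was 0.97 ± 0.24 there (adjusted p = 0.00224) and 0.10 ± 0.24 in naive cells (adjusted p = 0.731). Its other probes did not follow: one at chr6:122774576-122774635 changed by 0.09 in memory phenotype cells, and one that the files place on chromosome 17 fell by 0.80 there (adjusted p = 0.035), so the mean over its probes was 0.09. Many glycolytic genes, Gapdh first among them, have near-identical copies elsewhere in the genome, and whether these probes also read such copies was not tested.

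Hk2, the inducible hexokinase that traps glucose in the cell, had the largest rise of the 36 genes in both cell types. At chr6:82750613-82750672 its level was 1.66, 0.42, 0.41 and 0.76 on the naive resting and 5.91, 5.31, 5.28 and 5.27 on the naive stimulated arrays. In the memory phenotype it went from 2.35, 1.22, 1.43 and 1.21 at rest to 5.87, 5.71, 5.98 and 5.80 after stimulation. No resting array overlapped a stimulated one. The change was 4.63 ± 0.28 in naive cells (24.8-fold, adjusted p = 1.11e-09) and 4.29 ± 0.28 in memory phenotype cells (19.5-fold, adjusted p = 2.65e-09). Hk1, the constitutive hexokinase, moved little beside it. Its brightest probe (chr10:61787906-61787965) rose by 0.30 ± 0.09 in naive cells (adjusted p = 0.00872) and changed by -0.03 ± 0.09 in memory phenotype cells (adjusted p = 0.789). The Hk1 value in naive cells turned to -0.14 with quantile normalization and -0.18 with the authors' value table, and 4 other tested Hk1 probes changed by 0.00 to 0.25, none called.

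The 3 phosphofructokinase genes, whose enzymes make fructose 1,6-bisphosphate, moved apart. Pfkp, the platelet type (chr13:6475782-6477936), rose by 1.23 ± 0.22 in naive (adjusted p = 0.000158) and 1.45 ± 0.22 in memory phenotype cells (adjusted p = 3.12e-05). Its arrays read 3.45, 2.46, 2.47 and 2.53 at rest and 4.36, 3.79, 3.78 and 3.90 after stimulation in naive cells, without overlap. Another Pfkp probe, at chr13:6473188-6473247, changed by 0.31 and 0.32 and was not called. Pfkm, the muscle type (chr15:98135465-98135524), fell in both cell types: the naive arrays read -0.15, -0.35, -0.33 and -0.79 at rest and -2.56, -2.42, -2.59 and -2.95 after stimulation, and the memory phenotype arrays -0.29, -0.18, -0.27 and -0.82 and -2.31, -2.69, -2.45 and -2.74. It fell by 2.23 ± 0.18 in naive (adjusted p = 1.86e-08) and by 2.16 ± 0.18 in memory phenotype cells (adjusted p = 2.64e-08), and its groups did not overlap. Pfkl, the liver type (chr10:77642785-77642844), read 2.14, 1.26, 1.60 and 1.41 in memory resting and 3.06, 1.78, 2.30 and 1.89 in memory stimulated cells, with replicate 1 highest in both. It was not called with 16 arrays (0.66 ± 0.40, adjusted p = 0.154), and with the 12 arrays numbered 2 to 4 it was called in memory phenotype cells (0.57, adjusted p = 0.00499).

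The remaining upper steps changed less. Gpi1, glucose phosphate isomerase (chr7:31089664-31089723), was not called (-0.22 ± 0.15 in naive and -0.16 ± 0.15 in memory phenotype cells), though its second probe, at chr7:31097331-31097390, rose by 1.06 in naive cells (adjusted p = 3.17e-05). With quantile normalization the brighter Gpi1 probe was called lower in both, at -0.72 and -0.74. Aldoa, the main aldolase of most tissues (chr7:122891843-122891902), rose by 0.58 ± 0.20 in naive (adjusted p = 0.0178) and 0.76 ± 0.20 in memory phenotype cells (adjusted p = 0.00325). The naive call ended without naive stimulated replicate 1 (0.50, adjusted p = 0.0535), naive resting replicate 2 (0.46, 0.0644) or naive resting replicate 3 (0.43, 0.0695), and both calls ended with the authors' value table (0.21 and 0.28). Aldoc, the brain-type aldolase (chr11:78408037-78408096), fell in memory phenotype cells (by 1.59 ± 0.42, adjusted p = 0.00336). It read -1.58, -3.35, -3.49 and -3.35 on the naive resting and -4.48, -3.57, -3.26 and -3.55 on the naive stimulated arrays, so that replicate 1 was highest at rest and lowest after stimulation. Its naive change was -0.77 ± 0.42 with 16 arrays (adjusted p = 0.116) and -0.06 with 12. Its dimmer probe, at chr11:78409262-78409321, was called lower in both cell types (-1.83 and -2.37, adjusted p = 0.00119 and 0.000123), and the mean of both probes was -1.30 in naive cells (adjusted p = 0.00408). Tpi1 (chr6:124837320-124837379) was the gene in which replicate 1 weighed most among those not called: it read 4.80, 2.82, 2.80 and 3.31, 4.55, 3.46, 3.78 and 3.68, 5.43, 2.98, 2.72 and 3.63 and 5.23, 3.21, 3.74 and 3.65 in resting naive and memory and stimulated naive and memory cells. Its changes of 0.26 ± 0.59 and 0.09 ± 0.59 were within the spread, and they were 0.13 and -0.10 with 12 arrays, again not called.

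The payoff phase of glycolysis rose in both cell types except for the enolases, with Gapdh resting on a dim probe. Pgam1, phosphoglycerate mutase, had the largest rise of this stretch. It read 5.37, 4.43, 4.39 and 4.64 on the naive resting and 6.95, 6.49, 6.44 and 6.54 on the naive stimulated arrays (chr19:41812247-41812306), with no overlap, and rose by 1.90 ± 0.20 in naive (adjusted p = 6.66e-07) and 1.72 ± 0.20 in memory phenotype cells (adjusted p = 1.96e-06). Pkm, whose enzyme makes pyruvate (chr9:59706027-59706086), read 3.41, 2.81, 2.99 and 3.21 in memory resting and 5.01, 4.53, 4.91 and 4.57 in memory stimulated cells. It rose by 1.65 ± 0.22 there (adjusted p = 7.20e-06) and by 1.38 ± 0.22 in naive cells (adjusted p = 4.64e-05). Gapdh was read by a dim probe (chr6:125188005-125188064), assigned through a name built from its gene number. Its mean level was -2.86 in naive resting, -2.84 in memory resting, -1.41 in naive stimulated and -1.44 in memory stimulated cells. The probe rose by 1.45 ± 0.36 in naive and 1.40 ± 0.36 in memory phenotype cells (adjusted p = 0.00239 and 0.00296). Whether it reads the main Gapdh transcript was not tested.  Pgk1, phosphoglycerate kinase (chrX:101530787-101530846), rose by 1.20 ± 0.30 in naive (adjusted p = 0.00257) and 0.89 ± 0.30 in memory phenotype cells (adjusted p = 0.016). The memory call ended without memory stimulated replicate 1 (0.76, adjusted p = 0.0516), and both Pgk1 calls ended with quantile normalization (0.73 and 0.25, adjusted p = 0.0566 and 0.497).

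The 3 enolase genes differed in direction, while levels of different probes are not compared. Eno1 (chr4:149233567-149233792) read 1.82, 0.44, 0.49 and 0.53, 1.61, 0.83, 1.03 and 0.99, 1.78, -0.04, 0.11 and 0.31 and 1.54, 0.30, 0.43 and 0.61 in resting naive and memory and stimulated naive and memory cells, with replicate 1 far above the rest in each group. It was not called with 16 arrays (-0.28 ± 0.41 and -0.40 ± 0.41, adjusted p = 0.556 and 0.394). With the 12 arrays it was called lower in both cell types (-0.36 and -0.51, adjusted p = 0.0196 and 0.003). Eno2, the neuronal enolase (chr6:124786697-124786756), was dim and rose in naive cells (0.79 ± 0.26, adjusted p = 0.0153), a call that ended without naive resting replicate 3 (0.58, adjusted p = 0.06). In memory phenotype cells Eno2 was not called (0.40, adjusted p = 0.184), though its second probe, at chr6:124786200-124786233, was (0.74, adjusted p = 0.0309), as was the first with quantile normalization (0.80, 0.0095). Eno3, the muscle enolase (chr11:70744001-70744060), fell, and more so in naive cells. Its arrays read 1.63, 1.62, 1.54 and 1.72 in naive resting and 0.25, 0.30, 0.13 and 0.39 in naive stimulated cells. In memory phenotype cells they read 0.98, 1.36, 1.18 and 1.23 at rest and 0.60, 0.59, 0.90 and 0.72 after stimulation. Thus the order of the cell types turned over: naive cells were higher at rest and lower after stimulation, without overlap in either case. Eno3 fell by 1.36 ± 0.11 in naive (adjusted p = 2.14e-08) and by 0.49 ± 0.11 in memory phenotype cells (adjusted p = 0.000895).

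The lactate genes split by partner. Ldha, the muscle-type subunit that favours making lactate, read 7.26, 6.57, 6.46 and 6.79 at rest and 8.07, 7.77, 7.65 and 7.94 after stimulation in naive cells (chr7:43031720-43031779). It rose by 1.09 ± 0.16 (adjusted p = 1.96e-05), and by 0.81 ± 0.16 in memory phenotype cells (adjusted p = 0.00033), where the rise was not called with quantile normalization (0.32) or the authors' value table (0.24). Ldhb, the heart-type subunit that favours using lactate, fell by 0.42 ± 0.14 in naive (adjusted p = 0.0125) and by 0.44 ± 0.14 in memory phenotype cells (adjusted p = 0.00868). Centred on genes above background on all arrays, neither fall was called (-0.24 and -0.26), and the naive fall was -0.22 with 12 arrays. Slc16a1, the monocarboxylate carrier MCT1, rose strongly in both: its arrays read 3.14, 3.54, 3.44 and 3.58 in naive resting, 5.79, 6.09, 6.03 and 6.00 in naive stimulated, 2.67, 2.81, 2.68 and 3.03 in memory resting and 5.40, 5.76, 5.84 and 5.75 in memory stimulated cells (chr3:104451002-104451061). It rose by 2.55 ± 0.13 (5.87-fold, adjusted p = 1.96e-10) and 2.89 ± 0.13 (7.4-fold, adjusted p = 5.34e-11), and its 3 probes were called higher in both cell types.

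Slc16a3, the second lactate carrier, went the other way, and its test turned on the replicate 1 arrays. It read 3.01, 0.95, 0.71 and 1.11 in naive resting and 1.93, -1.04, -1.28 and -0.52 in naive stimulated cells (chr11:121067754-121067813). The memory phenotype arrays read 2.95, 1.40, 1.61 and 1.49 at rest and 1.53, -1.20, -0.57 and -0.38 after stimulation. For every replicate number the stimulated array was below the resting array, but replicate 1 of each stimulated group was as high as the resting arrays of other numbers. With 16 arrays it fell by 2.02 ± 0.73 in memory phenotype cells (adjusted p = 0.0218) and changed by -1.67 ± 0.73 in naive cells, which missed the threshold (adjusted p = 0.0527). With 12 arrays it fell by 2.22 in memory phenotype and by 1.87 in naive cells (adjusted p = 9.20e-06 and 3.53e-05). The memory call with 16 arrays ended without memory resting replicate 1 (-1.66, adjusted p = 0.0718), memory stimulated replicate 2 (-1.67, 0.0695) or memory stimulated replicate 3 (-1.88, 0.0515). In naive cells the call was made without naive stimulated replicate 1 (-2.39, adjusted p = 0.00409), naive resting replicate 3 (-1.92, 0.0462) or memory stimulated replicate 1 (-1.67, 0.0351). It was also made with a normexp background (-1.58, adjusted p = 0.0386), with the authors' value table (-1.73, 0.0377) and among genes above background on all 16 arrays (-1.67, 0.0425). With the replicate number as a block in the limma fit, Slc16a3 was called lower in naive (adjusted p = 4.77e-05) and memory phenotype cells (adjusted p = 9.23e-06). Same-numbered resting and stimulated arrays did not deviate together in every pair (correlation 0.04 over genes for naive replicate 2).

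The genes for the enzymes that set fructose 2,6-bisphosphate, the strongest activator of phosphofructokinase, moved in opposite directions. Pfkfb3, which mainly makes it (chr2:11411110-11411169), rose by 1.24 ± 0.22 in naive (adjusted p = 0.000105) and 1.05 ± 0.22 in memory phenotype cells (adjusted p = 0.000446). Its naive arrays read 2.11, 1.66, 1.57 and 1.38 at rest and 3.55, 2.69, 2.70 and 2.74 after stimulation. Its 2 dimmer probes changed by 0.51 and 0.56 in naive cells and were not called. Pfkfb4 (chr9:108742376-108742435) fell by 0.76 ± 0.23 in naive (adjusted p = 0.0086) and by 1.46 ± 0.23 in memory phenotype cells (adjusted p = 4.14e-05). It read 0.69, 0.88, 0.73 and 1.28 in memory resting and -1.05, -0.64, -0.33 and -0.22 in memory stimulated cells, without overlap.

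At the entry of pyruvate into the mitochondrion, both subunits of pyruvate dehydrogenase among the 36 genes rose. Of the 3 kinases among the 36 that switch it off, Pdk1 and Pdk2 fell. Pdha1 (chrX:154898033-154898092) rose by 0.79 ± 0.10 and 1.0 ± 0.10 (adjusted p = 3.45e-06 and 2.39e-07) and Pdhb (chr14:5976962-5977021) by 0.67 ± 0.12 and 0.88 ± 0.12 (adjusted p = 0.00011 and 6.37e-06) in naive and memory phenotype cells. A second Pdha1 probe, at chrX:154897095-154897154, changed by 0.10 and 0.06 and was not called. Pdk1, a pyruvate dehydrogenase kinase that hypoxia is known to raise, had the largest fall of the 36 genes. It read 3.47, 2.95, 2.94 and 2.78 in naive resting and 1.70, 0.12, -0.12 and 0.39 in naive stimulated cells (chr2:71747473-71747532). The memory phenotype arrays read 2.88, 2.81, 2.77 and 2.40 at rest and 1.13, -0.19, 0.14 and -0.19 after stimulation. The groups did not overlap, and replicate 1 lay 1.57 and 1.21 above the mean of the other arrays of the naive and memory stimulated groups. Pdk1 fell by 2.51 ± 0.35 (adjusted p = 1.23e-05) in naive and by 2.49 ± 0.35 (adjusted p = 1.33e-05) in memory phenotype cells. Pdk2 (chr11:95135705-95135764) was dim and fell by 0.59 ± 0.11 and 1.15 ± 0.11 (adjusted p = 0.000278 and 2.68e-07). Pdk3 (chrX:89151540-89151599) was not called (0.24 ± 0.12 and 0.01 ± 0.12). Its naive change was called higher without naive resting replicate 1 (0.35, adjusted p = 0.012), with the 12 arrays (0.28, 0.013) and when centred on genes above background on all arrays (0.41, 0.00894). Another Pdk3 probe, at chrX:89151865-89155557, was called lower in memory phenotype cells (-0.32, adjusted p = 0.031).

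Of the 6 measured pentose phosphate genes, 4 rose in each cell type (66.7%, where 36.7% of all genes rose in naive and 30.1% in memory phenotype cells). Tkt, transketolase of the non-oxidative branch (chr14:28003060-28003119), read 5.17, 4.93, 4.93 and 5.06 in naive resting, 6.61, 6.52, 6.50 and 6.40 in naive stimulated, 5.0, 5.0, 4.91 and 5.25 in memory resting and 6.58, 6.55, 6.71 and 6.45 in memory stimulated cells. Its replicates lay close together, the groups did not overlap, and it rose by 1.48 ± 0.10 and 1.53 ± 0.10 (adjusted p = 5.22e-09 and 3.59e-09). G6pdx, the first and NADPH-making step (chrX:69796259-69796318), rose by 0.66 ± 0.14 in naive (adjusted p = 0.000731) and 1.24 ± 0.14 in memory phenotype cells (adjusted p = 1.30e-06). Its stimulated arrays read 2.67, 2.57, 2.63 and 2.68 in naive and 3.12, 3.15, 3.28 and 3.13 in memory phenotype cells. Pgd, the second NADPH-making step (chr4:148139726-148139785), rose by 1.33 ± 0.13 and 1.15 ± 0.13 (adjusted p = 1.83e-07 and 9.39e-07), and Rpe, ribulose phosphate epimerase (chr1:66952393-66952452), by 0.87 ± 0.09 and 0.91 ± 0.09 (adjusted p = 7.23e-07 and 4.25e-07). Taldo1, transaldolase (chr7:137820127-137820186), was not called (-0.33 ± 0.21 and 0.18 ± 0.21). With quantile normalization it was called lower in both (-0.83 and -0.45), in memory phenotype cells with the sign turned.

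Pgls, 6-phosphogluconolactonase (chr8:70062307-70063221), was called lower in naive cells (by 0.55 ± 0.21, adjusted p = 0.0308) and changed by 0.08 ± 0.21 in memory phenotype cells. Its naive arrays read 2.37, 1.40, 1.37 and 1.20 at rest and 1.34, 1.02, 0.91 and 0.87 after stimulation. The naive fall shrank to -0.29 without naive resting replicate 1 (adjusted p = 0.0874), and the call also ended without naive stimulated replicate 2, 3 or 4 (adjusted p = 0.0566, 0.0719 and 0.0762). A second Pgls probe, at chr8:70075020-70075079, fell in both cell types (-0.73 and -0.66, adjusted p = 0.00391 and 0.00782). A probe that the files name only by a transcript number and describe as ribose 5-phosphate isomerase rose by 1.94 in naive and by 1.08 in memory phenotype cells. It lies outside the rule for Rpia and was looked up after its values were seen.

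Hif1a rose in both cell types, by 1.38 ± 0.14 in naive (2.6-fold, adjusted p = 2.77e-07) and by 1.47 ± 0.14 in memory phenotype cells (2.78-fold, adjusted p = 1.26e-07). Its arrays read 2.00, 2.09, 2.02 and 2.61 in naive resting and 3.56, 3.49, 3.48 and 3.70 in naive stimulated cells (chr12:71899015-71899075). In memory phenotype cells they read 2.00, 1.78, 1.80 and 2.16 and 3.37, 3.43, 3.33 and 3.51. Replicate 1 did not stand apart in Hif1a, where it lay -0.24 to 0.09 from the mean of the others. Its protein is known to be controlled mainly by breakdown, which these arrays do not measure.

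At rest, few of these genes were called different between the cell types. No gene was called higher in memory resting than in naive resting cells, where 13.8% of all genes tested were higher, and 3 were lower (8.33%), where 7.47% of all genes were. At an unadjusted p under 0.05 (limma), 1 gene was higher and 4 were lower, and the alternatives below called up to 3 genes higher. Ldhb was the clearest: it read 1.95, 1.64, 1.67 and 1.60 in naive resting and 0.33, 0.38, 0.36 and 0.27 in memory resting cells, without overlap, and was lower, with a difference of -1.38 ± 0.14 (2.6-fold, adjusted p = 3.01e-06; chr6:142578009-142578068). Slc16a1 was lower, with a difference of -0.62 ± 0.13 (adjusted p = 0.0037) and Eno3 had one of -0.44 ± 0.11 (adjusted p = 0.00892). Probes that do not represent their genes differed too, or did not follow: 1 of the other 2 Slc16a1 probes, at chr3:104447144-104447203, was not called (-0.46, adjusted p = 0.179), the second Gpi1 probe was 0.88 higher (adjusted p = 0.0015) and the second Pdhb probe had a difference of -0.40 (adjusted p = 0.00726). Same-numbered resting arrays deviated together (correlations of 0.30 to 0.58 over genes), and with the replicate number as a block Hk2 and Pfkp were called higher in memory resting cells and Pdhb and Rpe lower. For Hk2 the difference was 0.74 ± 0.28, with an adjusted p of 0.0788 without the block and 0.011 with it. For Pfkp it was 0.42 ± 0.22, with adjusted p = 0.2 and 0.0489, for Pdhb -0.24 ± 0.12, with 0.168 and 0.034, and for Rpe -0.27 ± 0.09, with 0.0522 and 0.0222. Hk2 was higher in the memory resting array of the same number in all 4 pairs. With the 12 arrays Hk2, Pfkp and Eno1 were called higher (0.76, 0.51 and 0.46, adjusted p = 0.00131, 0.0102 and 0.016). Leaving out naive resting replicate 1 alone also gave calls for Hk2 (1.02, adjusted p = 0.00692) and Pfkp (0.66, adjusted p = 0.0146), and leaving out memory resting replicate 4 gave one for Rpe (-0.32, adjusted p = 0.0329). Over all genes 65% of calls were higher here, and 47.2% with a normexp background and 50.3% with the authors' value table.

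After stimulation, 4 genes were higher in memory phenotype cells (11.1%, where 9.86% of all genes were) and 4 were lower (11.1%, where 14.2% were). This comparison shares its arrays with the stimulation responses. The Ldhb gap stayed: it read 0.94, 1.39, 1.35 and 1.49 in naive stimulated and -0.39, -0.06, 0.11 and -0.09 in memory stimulated cells, and was lower, with a difference of -1.40 ± 0.14 in the latter (adjusted p = 3.22e-06). Pfkfb4 was lower, with a difference of -0.93 ± 0.23 (adjusted p = 0.0087), Pdk2 had one of -0.56 ± 0.11 (adjusted p = 0.0026) and Hk1 had one of -0.48 ± 0.09 (adjusted p = 0.00137). The other tested Hk1 probes were not called, and Pdk2 was not called with a normexp background (-0.21, adjusted p = 0.0866). G6pdx was 0.53 ± 0.14 higher (adjusted p = 0.0128) and Eno3 0.43 ± 0.11 higher (adjusted p = 0.00902), both without overlap. Pfkp (0.64 ± 0.22, adjusted p = 0.0494) and Pgls (0.65 ± 0.21, adjusted p = 0.0351) were also called higher, near the threshold. The Pfkp call ended without naive stimulated replicate 2, 3 or 4, any memory stimulated replicate, naive resting replicate 2, 3 or 4, or memory resting replicate 3 or 4 (adjusted p up to 0.123). The Pgls call ended without naive stimulated replicate 2, 3 or 4 or memory stimulated replicate 1, 2 or 3 (adjusted p up to 0.101). Among other settings, quantile normalization, the authors' value table and probe means ended the Pfkp call (adjusted p = 0.111, 0.101 and 0.15). So did no filter on dim probes and centring on genes above background on all arrays (0.0737 and 0.0508). Quantile normalization, no filter and probe means also ended the Pgls call (0.06, 0.053 and 0.106). With the 12 arrays Pfkp and Pgls were called (adjusted p = 0.00121 and 0.00343), as were Slc2a3 (0.65) and Hk2 (0.54) as higher and Aldoc (-0.58) as lower. The chromosome 17 probe of Slc2a3 went the other way (-0.99, adjusted p = 0.0383). Slc2a3 was also called without naive resting replicate 1 (0.58, adjusted p = 0.0323) or naive stimulated replicate 1 (0.73, 0.0445), and Taldo1, which missed the threshold (0.57, adjusted p = 0.0576), on leaving out replicate 4 of the naive resting, memory resting or naive stimulated group (adjusted p = 0.0304, 0.0253 and 0.04). Taldo1 was also called higher with a normexp background (0.58, adjusted p = 0.0341), quantile normalization (0.54, 0.0354), the authors' value table (0.56, 0.0218) and centring on genes above background on all arrays (0.58, 0.0428). Over all genes 41% of calls were higher here, and 50.4% with a normexp background.

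The responses of the cell types differed by test in 1 gene upward (2.78%, where 5.61% of all genes were called) and 1 downward (2.78%, where 14.1% were). Eno3 fell less in memory phenotype cells, with a difference of responses of 0.87 ± 0.15 (adjusted p = 0.000933). Pdk2 fell more there, by a difference of -0.56 ± 0.16 (adjusted p = 0.0239), a call that ended without naive resting replicate 2 (-0.49, adjusted p = 0.054) or naive stimulated replicate 2 (-0.53, 0.0522). The Pdk2 value was -0.14 with a normexp background, -0.24 with quantile normalization and -0.09 with the authors' value table (adjusted p = 0.479, 0.277 and 0.637). A second Gpi1 probe and a second Pdhb probe, which do not represent their genes, differed in response by -1.12 and 0.51 (adjusted p = 0.00375 and 0.0153). G6pdx rose more in memory phenotype cells by 0.58 ± 0.20, which missed the threshold (adjusted p = 0.053), and it was called without naive resting replicate 1 (0.61, 0.0494) or memory resting replicate 4 (0.72, 0.00839) and with that centring (0.59, 0.0302). Hk1 had a difference of -0.33 (adjusted p = 0.0892), and was called with a normexp background (-0.35, 0.0458), quantile normalization (-0.43, 0.0355) and the authors' value table (-0.45, 0.0164). Slc2a3 had a difference of 0.88 ± 0.34 (adjusted p = 0.0898), and was called with the 12 arrays (0.84, adjusted p = 0.0126) and without naive stimulated replicate 1 (1.02, 0.0487). The lowest Slc2a3 value over the alternatives was 0.25. Aldoc was called with the 12 arrays (-1.06, adjusted p = 0.0105) and not with 16 (-0.82 ± 0.60, adjusted p = 0.37). For Hk2 the difference of responses was -0.35 ± 0.40 and for Slc16a1 0.33 ± 0.19, neither called. Over all genes 28.4% of calls were higher in this contrast, and 47.8% with a normexp background, 40.7% with quantile normalization and 46% with the authors' value table.

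Pairs of genes for the same step were also compared within each array, where scaling between arrays drops out. In 24 of 48 comparisons (12 pairs, 4 contrasts) the arrays of the groups did not overlap and the exact two-sided permutation test gave its smallest possible p, 0.0286 for 4 against 4. This count pools stimulation responses with differences between cell types, and no share over other gene pairs was computed. Of all single genes, 60.2% did not overlap in the naive and 65.2% in the memory response, so the count is not read as a trait of these pairs. None passed after Benjamini-Hochberg adjustment over the 48, where the lowest adjusted p was 0.0571. That value depends on how many of the comparisons reached the smallest p. The balance of Hk2 over Hk1 moved by 4.33 (log2) toward Hk2 in naive and by 4.31 in memory phenotype cells, and it was 0.87 further toward Hk2 in memory stimulated than in naive stimulated cells. Ldha over Ldhb moved by 1.51 in naive and 1.25 in memory phenotype cells, and memory phenotype cells lay 1.5 further toward Ldha at rest and 1.24 further after stimulation, so that naive stimulated and memory resting cells lay 1.51 and 1.5 from naive resting cells. These distances differed in their parts. The naive response was mainly a rise of Ldha, while the resting difference was mainly a lower Ldhb, with Ldha not called. Slc16a3 over Slc16a1 moved by -4.23 in naive and -4.91 in memory phenotype cells, away from Slc16a3. Pfkp over Pfkm moved by 3.46 and 3.61, Pfkfb3 over Pfkfb4 by 2.00 and 2.51, and Pdk1 over Pdk3 by -2.75 and -2.50. Slc2a3 over Slc2a1 moved in opposite directions, by -0.73 in naive and 0.33 in memory phenotype cells. The memory direction rests on the brightest Slc2a3 probe, since the mean over its tested probes changed by 0.09 there. The ratio was not computed with that mean. The groups named for these pairs did not overlap with or without the replicate 1 arrays. With the 12 arrays the smallest p the design allows is 0.1. Aldoa over Aldoc moved by 1.36 in naive and 2.36 in memory phenotype cells, and by 0.77 and 1.96 with the 12 arrays. The enolase pairs overlapped with 16 arrays: Eno1 over Eno3 moved by 1.08 in naive (p = 0.114) and 0.09 in memory phenotype cells (p = 0.743), by the same exact permutation test. With the 12 arrays Eno1 over Eno3 moved by 0.99 in naive cells and was 0.83 higher in memory resting than in naive resting cells, both without overlap. Eno1 over Eno2 moved by -1.08 in memory phenotype cells with the 12 arrays, also without overlap.

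**Figure D4:**
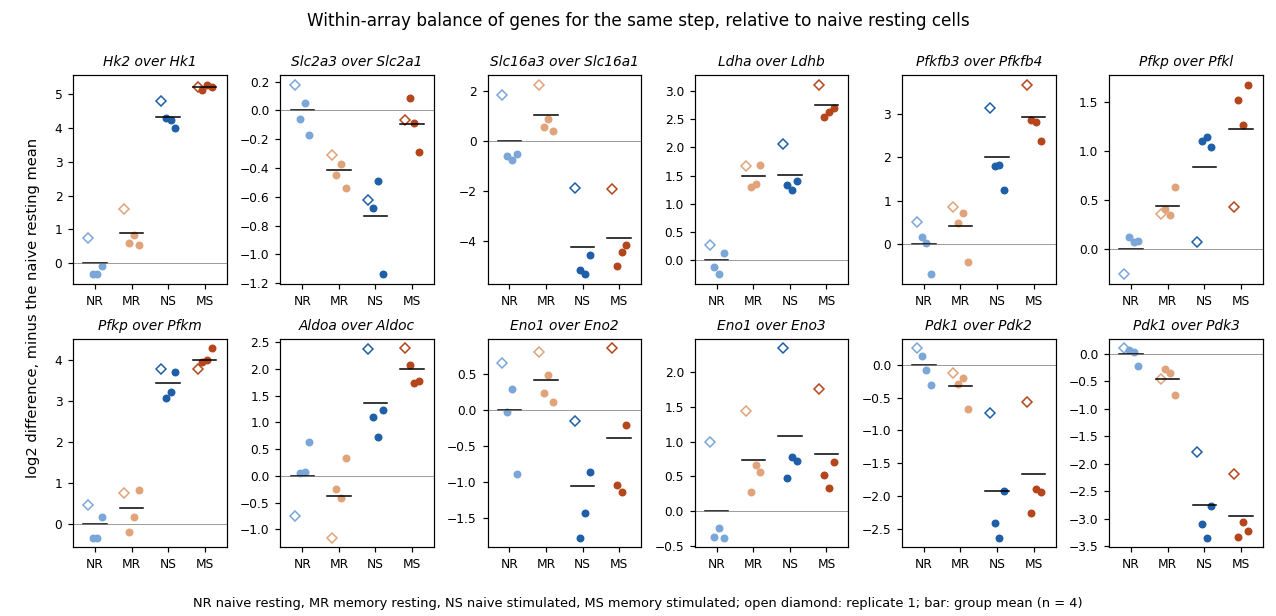
Each panel is the log2 difference between 2 genes on the same array, minus its mean in naive resting cells (vertical axis), in the 4 groups (horizontal axis). Dots are arrays, open diamonds the replicate 1 arrays, and bars group means over 4 arrays. Hk2 over Hk1 climbs with stimulation, Slc16a3 over Slc16a1 drops with it with replicate 1 above the others, and Ldha over Ldhb is similar in memory resting and naive stimulated cells.

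Other genes around these steps were taken as lists, whose counts stand beside the array-wide shares given above (36.7% higher and 32% lower in naive, 30.1% and 40.8% in memory phenotype cells). Of the 19 genes of the tricarboxylic acid cycle, 7 rose and 6 fell in naive cells (36.8% and 31.6%, near the shares of all genes) and 8 rose and 3 fell in memory phenotype cells (42.1% and 15.8%), and none was called between the cell types at rest or after stimulation (limma, with 1 higher and 1 lower at an unadjusted p under 0.05 in each). Idh3a, a subunit of isocitrate dehydrogenase, rose by 2.22 ± 0.14 and 2.02 ± 0.14 in naive and memory phenotype cells, and Idh2, the NADP-linked mitochondrial isocitrate dehydrogenase, fell by 1.62 ± 0.24 and 1.67 ± 0.24. Of 9 tested pyruvate entry genes, 5 rose and 1 fell in naive and 6 rose and 2 fell in memory phenotype cells, led by Dlat, the acetyltransferase core of pyruvate dehydrogenase (1.60 ± 0.11 and 1.47 ± 0.11). Of 8 tested genes that set fructose bisphosphates or run gluconeogenesis, 3 rose and 3 fell in each. Tigar, a fructose 2,6-bisphosphatase, rose by 2.33 ± 0.13 and 2.56 ± 0.13, while Pfkfb1 fell by 2.55 ± 0.18 and 2.12 ± 0.18 and Pfkfb2 by 2.38 ± 0.20 and 2.11 ± 0.20. Of 7 other pentose phosphate genes, 2 rose and 3 fell in naive and 1 rose and 3 fell in memory phenotype cells: Prps1, which makes phosphoribosyl pyrophosphate, rose by 0.88 ± 0.12 and 1.61 ± 0.12, and Shpk and H6pd fell. Of 17 tested glycolytic isoenzymes and side steps, 7 rose and 3 fell in naive and 6 rose and 4 fell in memory phenotype cells, with Pgm3 (2.07 ± 0.09 and 2.09 ± 0.09) and Adpgk, an ADP-dependent glucokinase (1.99 ± 0.11 and 2.08 ± 0.11), rising. Pgk2, the testis form of phosphoglycerate kinase, had values of 4.94 ± 1.07 in naive and -4.87 ± 1.07 in memory phenotype cells. Its SE was by far the largest among the genes named here, so its arrays scattered widely and the values are not read as opposite responses. Of 6 tested glucose and lactate carriers, 1 rose and 3 fell in naive and 2 rose and 4 fell in memory phenotype cells. Bsg, the chaperone of MCT1 and MCT4, rose by 0.93 ± 0.16 and 1.19 ± 0.16, and Slc2a9 fell by 3.30 ± 0.28 and 4.44 ± 0.28. Of 8 hypoxia factor genes, 1 rose and 4 fell in each cell type, and Arnt, the partner of Hif1a, fell by 1.27 ± 0.12 and 1.12 ± 0.12. Of 12 common reference genes, 7 rose in naive and 6 in memory phenotype cells and none fell. Tfrc, the transferrin receptor, rose by 4.11 ± 0.12 and 4.30 ± 0.12, and Hprt by 1.33 ± 0.11 and 1.10 ± 0.11.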

How the data were processed

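Total RNA of 16 cell samples was labelled with Cy3 after oligo(dT)-primed linear amplification and hybridised to single-colour Agilent mouse arrays, per the labels' protocols. The intensities deposited by the authors are spot signals from Agilent Feature Extraction 9.5.3.1, per the file headers. The processed signal, already background-corrected, was used. Per the file headers the probe coordinates are those of mouse build mm7. The authors' value table was used as an alternative. Its values are intensities, lie close to log2 processed signal once logged (lowest r = 0.975), have an array median of 149 on every array and a lowest value of 30. Its scaling by the authors is not stated in what was used here.

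Log2 processed signal minus each array's 75th percentile over non-control spots was fitted with limma 3.58.1 (lmFit, eBayes) in R 4.3.3, with one mean per group over all 16 arrays, two-sided tests and Benjamini-Hochberg adjustment over 18399 genes (threshold 0.05). Probes entered the test if flagged well above background on 3 or more of the 4 arrays of any group, and the brightest tested probe stood for its gene. Outlier spots, 59 to 116 an array, were left out. Replicates correlated at 0.978 to 0.995 over genes. Symbols came from the file's accession for 22899 probes, its symbol for 6647 and an older name for 3401, and 8161 kept the name in the files. The script was tested on simulated data.

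All 37 listed genes are accounted for. Of each pathway list, at most the 3 called genes with the largest change in each direction are named. Gene ratios within an array were compared by exact permutation tests. Alternatives were normexp background, quantile normalization, the authors' table, filters, probe means, another centring, a replicate block, and arrays left out. Same-numbered resting naive and memory arrays deviated together in all 4 pairs (correlation 0.30 to 0.58 over genes), which is why the blocked result is given for that difference. In each other pair of groups at least 1 of the 4 correlations was 0.1 or less. The blocked results of the other comparisons therefore stand in the closing section, and for Slc16a3 also beside its result. Genes called in neither response without the block and called with it are also named beside that count. The members and lists were chosen with earlier results of these data known. Promoters came from RefSeq (GRCm38.p6).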

Additional observations from a re-analysis of the deposited data

Results flagged for a closer look

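In each group of 4 arrays an array was singled out where its gap to the nearest other array took up more of the group's range than Dixon's critical value for 4 values, a rule by which chance singles out about 1 group in 20. Of 144 combinations of gene and group, 16 had such an array, and each was the highest of its group. In 12 it was replicate 1. In naive resting cells these were Slc2a1 at 4.51, Slc2a3 at 2.98, Pfkl at 2.60, Pfkp at 3.45, Aldoc at -1.58, Eno1 at 1.82 and Pkm at 3.76. In naive stimulated cells they were Hk2 at 5.91, Pfkl at 3.18, Gapdh at -0.82 and Pfkfb3 at 3.55, and in memory resting cells Slc16a3 at 2.95. Replicate 4 of the naive resting group stood out in Pfkfb4 at 1.52, G6pdx at 2.33 and Hif1a at 2.61, and replicate 3 of the memory stimulated group in Pgd at 3.94. The genes share arrays, so these are not independent cases, and what set the arrays apart was not tested.

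The responses of the cell types differed by the interaction test for Eno3, whose response was 0.87 higher in memory phenotype cells, and for Pdk2, with a difference of -0.56.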

How the results depend on the processing

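Of the genes' results under settings other than leaving out 1 array, 1523 kept direction and side of the threshold, 61 passed it only there, 31 lost it and 5 turned sign. Those 5 were Hk1 in naive cells (-0.14 with quantile normalization, -0.18 with the authors' table), Taldo1 in memory phenotype cells (-0.45 and -0.51) and Gpi1 in naive cells with probe means (0.42). Leaving out 1 array kept 2833 results, ended 32 calls and made 15, and turned none. Genes of the 36 called higher at rest numbered 0 to 2 with 1 array left out, 1 with quantile normalization, 1 with probe means, 2 with the replicate block and 3 without the arrays numbered 1. With 1 array left out, 2 to 5 were higher after stimulation, 1 to 2 higher and 0 to 1 lower in the interaction. The block gave 5 lower at rest, and 3 higher and 3 lower in the interaction, where the other centring gave 2 higher and 12 arrays 2 higher and 2 lower. No filter and probe means each gave 2 higher after stimulation. Over all genes, normexp gave 1540 lower after stimulation and 1377 lower in the interaction, and genes on all 16 arrays gave 1651 there. At rest 2196 were lower with the authors' table, 2412 with the block and 851 to 1927 with 1 array left out, and in the interaction 1677 were higher with the authors' table and 1698 with the block. The cause of these changes was not tested. The all-gene median change moved from 0.11 to 0.28 in naive cells with the other centring and to -0.01 with the authors' table, and from -0.21 to 0.04 (normexp), -0.03 (centring) and -0.10 (authors' table) in memory phenotype cells. Over 24 same-numbered pairs of arrays deviations correlated at -0.21 to 0.585, 16 of them above 0.1, and 13 were closest to their own number. Beside the resting difference, the block made calls for Slc16a3, Pfkl, Pdk3 and Taldo1 in the naive response (adjusted p = 4.77e-05, 0.0378, 0.0178 and 0.0366) and for Pfkl and Eno1 in the memory response (0.00205 and 0.0315). It also made them for Slc2a3, Taldo1, Slc16a1 and Rpe after stimulation (0.00366, 0.00657, 0.028 and 0.0432) and for Slc2a3, Pfkfb4, G6pdx and Hk1 in the interaction (0.0034, 0.0156, 0.0255 and 0.0477), and it ended no call among the 36 genes. The planned normexp fit was not run to a result because 34 spots on 3 arrays lay far below their local background, so a version with those spots floored was used, and the slide could not be fitted as a block because each group has its own slide. Dim probes, such as those of Gapdh, Aldoc, Eno2 and Pdk2, are the least well measured.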
